A study of Drosophila melanogaster with 16 samples.

Results

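The Dscam family of the fly comprises 4 genes, Dscam, Dscam2, Dscam3 and Dscam4, found here by their symbols among the 15682 genes of the deposited expression table. Dscam proteins are cell-surface receptors of the immunoglobulin superfamily. They bind copies of themselves on touching membranes, and in many neurons that contact ends in repulsion. Dscam, also called Dscam1, is spliced into a very large set of isoforms that bind only their own kind, which lets the branches of one neuron avoid each other. Dscam2 carries a pair of alternative extracellular exons, and in the fly visual system it keeps axons of neighbouring columns apart, a property called tiling. Dscam and Dscam2 also act together at photoreceptor synapses, where they keep the postsynaptic pair of L1 and L2 processes from being replaced by a pair from one cell. The splicing factor Muscleblind, encoded by mbl, is known to set which Dscam2 exon is used, and L1 and L2 are known to make different Dscam2 isoforms. The values below are totals per gene, so they do not show isoforms.

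The data were RNA-seq libraries of neurons sorted by flow cytometry from dissociated wild-type pupal optic lobes of Drosophila melanogaster. R7 and R8, the inner photoreceptors, gave 2 libraries each. L1, L2, L4 and L5, which are lamina neurons, gave 2 libraries each, and the lamina neuron L3 gave 4, making 16 libraries in all. A dissection protocol shared by every sample puts the tissue at 40 h after pupal formation, but the samples' own age entries differ by type. R7 is entered at 65 h and R8 at 96 h, and L1, L2, L3, L4 and L5 are entered at 24, 35, 40, 45 and 53 h. Should those entries be right, cell type cannot be told apart from age in any comparison below. No label ties the libraries of one type to separate animals, so each p-value measures only the spread between libraries. Fewer cells of a type and less RNA per cell cannot be told apart in such bulk samples.

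Values are in RPKM, read counts scaled to gene length and to the mapped reads of the library. Library totals recovered from the table lay between 47.05 and 153.6 M reads. Markers were highest in the labelled type for R neurons, R7, R8, L1, L3 and L4, as was pdm3 for L5. The other L5 marker, bsh, is also an L4 marker, and averaged 510 RPKM in L4 and 304 RPKM in L5. No marker of L2 alone was on the list. Of the 5 lamina neuron markers, scro, slp1 and slp2 were higher in every lamina type than in R neurons, dac was at R levels in L2 (0.264 RPKM), and hth was highest in R8 (65.6 RPKM) and higher in R neurons than in lamina neurons (log2 difference 0.82, adjusted p = 0.00228). The photoreceptor genes chp, gl, Pph13 and oc together reached 1112 to 1624 RPKM in R libraries, against 4.71 to 71.1 RPKM in lamina libraries. The highest of those lamina sums, 30.2 to 71.1 RPKM, were in L3. Markers of 6 glial genes summed to 20.9 to 28.6 RPKM in R libraries and 5.85 to 33.1 RPKM in lamina libraries, with the pan-glial gene repo at 1.18 RPKM or lower in every library. A single gene, nrv2, made most of the R sums, at 18.5 RPKM in R7 and 20.6 RPKM in R8, against 0.736 to 2.09 RPKM in lamina types. Of the blood cell genes, Hml, nimC1 and srp were at 0.970 RPKM or lower in every library while Pxn reached 14.2 to 221 RPKM in type means of lamina neurons, against 0.302 to 0.393 RPKM in R neurons. The part of these marker differences in the results was not tested.

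Each member had its own distribution over the 7 types. Dscam2 was the one abundant in all of them, and was highest in L3 and R8 and lowest in L5. Dscam4 was a lamina-enriched gene with its highest level in L4. Dscam3 was near the bottom of the range in R7, R8, L1 and L2 and among the more abundant genes in L5 and L3. Dscam was low per unit length everywhere, with its highest levels in L5 and L4. Differences over the 7 types were called for 4 of 4 members by limma's moderated F-test at an adjusted p under 0.05, as they were for 70.9% of the 9346 genes tested. Within L1 to L5 they were again called for 4 of 4, against 44.6% of genes. By the size of the F statistic over the 7 types, Dscam3 took place 25 and Dscam4 place 255 among the genes tested, while Dscam took place 2262 and Dscam2 place 2998.

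**Figure D1:**
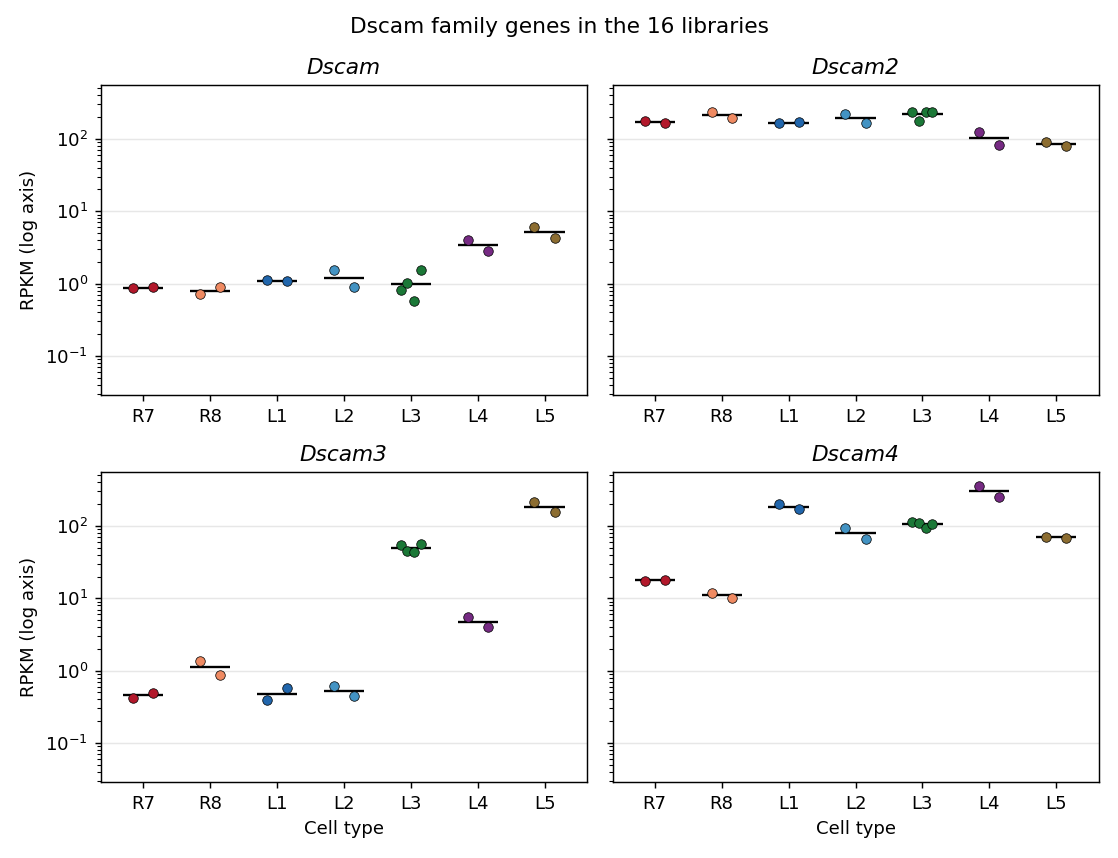
RPKM of the 4 Dscam family genes on a log axis, by cell type. Each point is a library and each bar the mean of its type (n = 4 for L3 and 2 for each other type). Dscam2 stays between 80.6 and 236 RPKM in all libraries, whereas the type means of Dscam3 differ by up to 401-fold.

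Dscam2 (FBgn0263218 in the table, on chromosome arm 3L) is the tiling receptor. It had 175 and 166 RPKM in R7 and 236 and 194 RPKM in R8. In the lamina it had 164 and 170 RPKM in L1, 223 and 164 RPKM in L2, and 235, 178, 235 and 233 RPKM in L3. The 2 remaining types were lower, with 125 and 82.9 RPKM in L4 and 90.6 and 80.6 RPKM in L5. Every library of R7, R8, L1, L2 and L3 lay above every library of L4 and L5. The type means differed by at most 2.58-fold, the narrowest range of the family, and Dscam2 exceeded between 90.1% and 95.9% of the tested genes in each type. In the order of levels L3, R8, L2, R7, L1, L4, L5, the only neighbours that limma called different were L1 and L4 (log2 difference 0.71, adjusted p = 0.0409). Type means were 104 ± 29.5 RPKM in L4 and 85.6 ± 7.07 RPKM in L5 (SD, n = 2 each), and those libraries overlapped.

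Dscam4 (FBgn0263219, also on 3L) separated the photoreceptors from the lamina. Its level was 17.6 and 17.8 RPKM in R7 and 11.8 and 10.1 RPKM in R8. The lamina libraries held 199 and 170 RPKM in L1, 94.6 and 66.6 RPKM in L2, 112, 110, 92.9 and 106 RPKM in L3, 356 and 250 RPKM in L4, and 71.4 and 67.4 RPKM in L5. No R library reached the lowest lamina library. Within the lamina the order was L4, L1, L3, L2, L5. L4 exceeded L1 (adjusted p = 0.0297) and L1 exceeded L3 (adjusted p = 0.0065), while L3 against L2 (adjusted p = 0.136) and L2 against L5 (adjusted p = 0.587) were not called. L4 libraries held 303 ± 75.0 RPKM on average and L5 libraries 69.4 ± 2.83 RPKM (SD, n = 2 each), a ratio of 4.36. In L4 Dscam4 was above 97.1% of the tested genes, and in R8 above 55.5%.

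Dscam3 (FBgn0261046, on 3R) had the steepest profile. R7 held 0.421 and 0.492 RPKM, and R8 held 1.36 and 0.861 RPKM. L1 held 0.398 and 0.569 RPKM and L2 0.607 and 0.451 RPKM. Against these 8 low libraries, L5 held 212 and 154 RPKM, L3 held 54.0, 45.0, 43.6 and 56.1 RPKM, and L4 held 5.60 and 3.95 RPKM. No library of L3, L4 or L5 overlapped another of those types or the low libraries. Neighbouring steps from L5 to L3 (adjusted p = 1.31e-05), L3 to L4 (8.92e-08) and L4 to R8 (0.000155) were called, and those among R8, L2, L1 and R7 were not (adjusted p of 0.134 to 0.962). The L5 mean was 3.68 times that of L3 and 38.3 times that of L4. The low values still rested on reads, with 271 reads in the library with fewest, so they are not at the counting floor. L4 and L5 share the marker gene bsh, yet Dscam3 was above 39.5% of the tested genes in L4 and above 95.4% in L5.

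Dscam (FBgn0033159, on 2R, current symbol Dscam1) had 0.856 and 0.910 RPKM in R7 and 0.717 and 0.885 RPKM in R8. In the lamina it had 1.12 and 1.08 RPKM in L1, 1.53 and 0.890 RPKM in L2, and 0.806, 1.01, 0.583 and 1.56 RPKM in L3. L4 held 3.97 and 2.87 RPKM and L5 held 6.15 and 4.30 RPKM. Both of these types lay above all the other libraries. They did not overlap each other, though 2 libraries often separate from 2 by chance. In the order L5, L4, L2, L1, L3, R7, R8 the step from L4 to L2 was called (adjusted p = 0.0106) and L5 against L4 was not (adjusted p = 0.270). The 5 types from L2 to R8 showed no called neighbours, with adjusted p-values of 0.784 to 0.971. Counting depth was ample, at 1069 to 10709 reads per library.

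Levels set between genes depend on the length used for each. The length that the authors' values imply for Dscam was 24824 bases, which is 3.21 times its median annotated transcript of 7741 bases, because the alternative exons are counted together. The same ratio was 1.69 for Dscam2, 1.11 for Dscam3 and 1.21 for Dscam4. Per median transcript length the level of Dscam was 1.87 to 19.7 RPKM over the libraries, below that of Dscam2 at 136 to 399 RPKM. The order of Dscam and Dscam3 turned with this scale in a pair of types. R8 averaged 2.57 RPKM of Dscam and 1.23 RPKM of Dscam3 per median transcript, against 0.801 and 1.11 RPKM as deposited. L4 averaged 10.96 RPKM of Dscam and 5.28 RPKM of Dscam3 per median transcript, against 3.42 and 4.78 RPKM as deposited. Dscam also overlaps antisense RNAs over 3.85% of its exons, Dscam4 overlaps a transposon gene over 1.85%, and whether reads were counted by strand is not given in the sources used here. Ratios of one gene's RPKM between libraries do not depend on the length by which its values were divided. The tests used log2(RPKM + 1), where the added 1 makes differences depend on that length, most at low levels. Comparisons of one gene could also depend on which transcripts a type uses, which these totals do not show. Annotated Dscam2 transcripts, for example, run from 3476 to 10070 bases.

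The make-up of the family on the RPKM scale therefore differed from type to type. Dscam2 gave 90.0% ± 0.460 of the summed RPKM of the 4 genes in R7 and 94.3% ± 0.156 in R8 (SD, n = 2 each). Dscam2 and Dscam4 shared the sum in L1, at 47.4% and 52.2%, and in L2, at 70.3% and 29.1%. L4 had mostly Dscam4, at 73.1%, with Dscam2 at 24.9%. L5 was the type in which Dscam3 led, at 53.0%, with Dscam2 at 25.1% and Dscam4 at 20.4%. L3 also drew on these genes together, with Dscam2 at 58.4%, Dscam4 at 28.1% and Dscam3 at 13.2%. Dscam gave 0.263% in L3 to 1.51% in L5. These shares depend on the lengths used. Per median transcript the order in L1 turned, with Dscam2 at 55.4% and Dscam4 at 43.8%, and Dscam gave 0.570% in L3 to 3.72% in L5. On that scale Dscam2 still led in R7 (92.1%), R8 (95.5%), L2 (76.3%) and L3 (66.6%), Dscam4 in L4 (65.8%) and Dscam3 in L5 (44.9%). On the scale of the deposited values, summed over the 4 genes, the mean level was 189.6 RPKM in R7, 228 RPKM in R8, 353 RPKM in L1, 276 RPKM in L2, 376 RPKM in L3, 414.5 RPKM in L4 and 343 RPKM in L5.

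**Figure D2:**
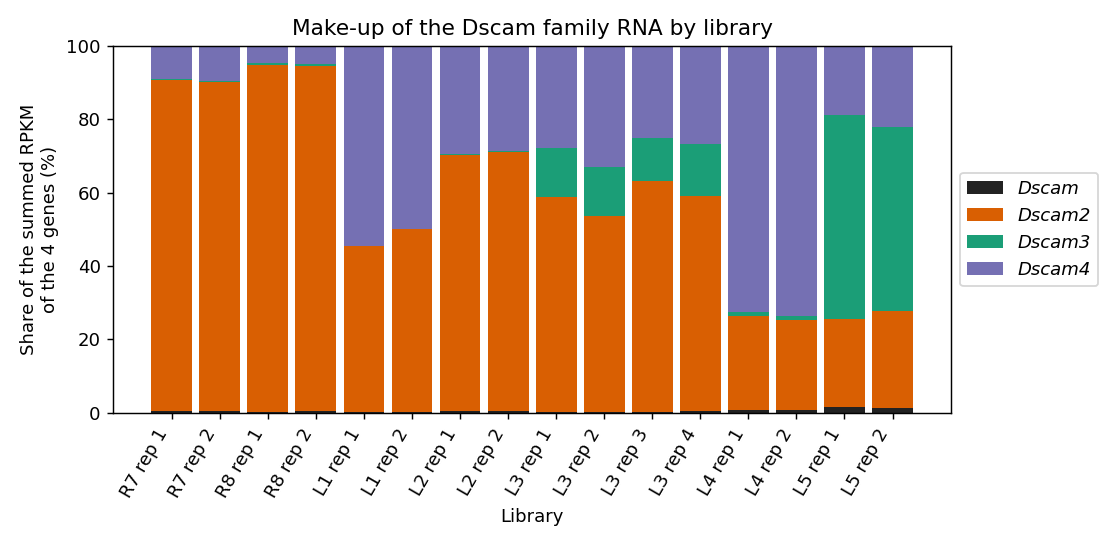
Share of each gene in the summed RPKM of the 4 Dscam family genes, in percent, with 1 stacked bar per library. Dscam2 fills at least 89.7% of each R7 and R8 bar, Dscam4 leads in both L4 bars at 72.6% and 73.6%, and Dscam3 leads in both L5 bars at 55.8% and 50.3%.

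R neurons and lamina neurons both send axons into the medulla, and the title of the series asks about complementary receptors of synaptic partners there. The classes were compared as the mean of R7 and R8 minus the mean of L1 to L5. Differences are in log2(RPKM + 1), which understates the change of low genes. limma called 4 of 4 members, 1 higher and 3 lower in R neurons, where 61.9% of all tested genes were called, 31.7% higher and 30.2% lower. On this scale Dscam4 had the largest difference, lower in R neurons (log2 difference -3.09 ± 0.124 SE, adjusted p = 3.08e-10). As a ratio of mean RPKM, R over lamina, Dscam3 was further down, at 0.0164 against 0.0965 for Dscam4. Dscam3 (-2.57 ± 0.130, adjusted p = 2.71e-09) and Dscam (-0.70 ± 0.147, adjusted p = 0.00105) were also lower, and Dscam2 was higher (0.41 ± 0.136, adjusted p = 0.0187). The Dscam2 difference was 0.19 (adjusted p = 0.392) after quantile normalization and was not called without R7 replicate 1 (adjusted p = 0.0696) or R8 replicate 1 (adjusted p = 0.0966).

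The pairs of types show how much of each class difference every lamina type carried. For Dscam4 both R types were below each of the 5 lamina types, with adjusted p-values of 4.01e-09 to 9.74e-06. For Dscam3 both R types differed from L3, L4 and L5 and from neither L1 nor L2 (adjusted p of 0.0907 to 0.956). For Dscam both R types differed from L4 and L5, and not from L1, L2 or L3 (adjusted p of 0.425 to 0.846). For Dscam2 the calls were likewise against L4 and L5 alone, where R neurons were higher. The number of called pairs out of 21 was 18 for Dscam4, 15 for Dscam3, and 10 each for Dscam and Dscam2. Pairs were fitted once, with all 16 libraries, and no alternative or left-out library was tried on them. Many of the tested genes were called in these pairs as well. With R7 on top, the called share was 10.3% against R8, 40.9% against L1, 33.8% against L2, 51.2% against L3, 51.9% against L4 and 45.3% against L5. With R8 on top, it was 42.4% against L1, 36.8% against L2, 49.4% against L3, 52.1% against L4 and 45.8% against L5. Between lamina types it was lower: L1 gave 8.36% against L2, 24.7% against L3, 25.8% against L4 and 21.5% against L5, and L2 gave 24.2% against L3, 26.7% against L4 and 20.0% against L5. L3 gave 21.2% against L4 and 16.7% against L5, and L4 gave 12.6% against L5.

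R7 against R8 showed no called member, and 10.3% of the tested genes were called in that comparison. The Dscam4 libraries did not overlap between the 2 types, with R7 higher (log2 difference 0.64 ± 0.212 SE, adjusted p = 0.0815). That difference was called with the 4 photoreceptor libraries fitted alone (adjusted p = 0.0226). That fit called 2479 of the 9346 tested genes, against 966 with all 16 libraries. Dscam3 differed by -0.52 (adjusted p = 0.202), Dscam2 by -0.33 (adjusted p = 0.547) and Dscam by 0.07 (adjusted p = 0.971). Dscam3 was lower in both R7 libraries than in both R8 libraries, and it was called with a pseudocount of 0.1 (-1.09, adjusted p = 0.0341). For Dscam4 and Dscam3 alike, 2 libraries often separate from 2 by chance. The share of all tested genes that separated so is not given here.

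Each lamina type was then set against the mean of the other 4. L5 differed in 4 of 4 members, against 17.5% of all tested genes: Dscam3 was higher by 5.17 ± 0.174 and Dscam by 1.297 ± 0.196, while Dscam4 (-1.06) and Dscam2 (-0.93) were lower, with adjusted p-values of 3.37e-10 to 0.00306. The Dscam2 call in L5 was lost without L5 replicate 2 (adjusted p = 0.0545). L4 also differed in 4 of 4, against 23.8% of genes. Dscam4 (1.54, adjusted p = 2.27e-05) and Dscam (0.68, adjusted p = 0.0237) were higher in L4, and Dscam3 (-1.07, adjusted p = 0.000706) and Dscam2 (-0.62, adjusted p = 0.0270) were lower. Against these means, L4 and L5 thus had called differences in one direction for Dscam and Dscam2 and in opposite directions for Dscam3 and Dscam4. For Dscam3 in L4 the mean of the other 4 holds the high levels of L5 and L3. In the pairs, L4 was below L3 and L5 in Dscam3. It was above L1 (L1 minus L4 -1.95, adjusted p = 3.36e-05) and L2 (L2 minus L4 -1.90, adjusted p = 4.58e-05). The L4 calls for Dscam and Dscam2 each depended on 1 library, with adjusted p = 0.204 without L4 replicate 1 for Dscam and adjusted p = 0.299 and a difference of -0.33 without L4 replicate 2 for Dscam2. Dscam3 in L4 was at -0.65 with a pseudocount of 0.1 (adjusted p = 0.0582) and at -0.57 with voom (adjusted p = 0.0921).

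L3 differed in 3 of 4 members, against 22.5% of genes: Dscam3 (2.86, adjusted p = 6.57e-09) and Dscam2 (0.76, adjusted p = 0.00183) were higher and Dscam (-0.77, adjusted p = 0.00279) was lower, while Dscam4 was at -0.33 (adjusted p = 0.0904). L1 also had 3 of 4, against 21.1% of genes: Dscam3 (-3.51, adjusted p = 1.95e-08) and Dscam (-0.64, adjusted p = 0.0339) were lower and Dscam4 was higher (0.68, adjusted p = 0.0107). In L2 limma called 2 of 4, against 21.6% of genes, with Dscam3 (-3.45, adjusted p = 2.02e-08) and Dscam4 (-0.83, adjusted p = 0.00355) both lower. In L2 Dscam was at -0.57 (adjusted p = 0.0562) and Dscam2 at 0.52 (adjusted p = 0.0600). Both were called without L3 replicates 3 and 4 (adjusted p of 0.0262 and 0.0423). That fit called 2832 genes in L2, against 2016 with all 16 libraries. L1 and L2, which receive photoreceptor input at the same synapses, differed in Dscam4, with a mean of 184 RPKM in L1 and 80.6 RPKM in L2, a ratio of 2.29 (log2 difference 1.20, adjusted p = 0.00253). The call of Dscam in L1 was lost without either L1 library, either R7 library, L2 replicate 1 or L5 replicate 1 (adjusted p of 0.0521 to 0.214) and after quantile normalization (-0.34, adjusted p = 0.174). Other calls lost without 1 library were Dscam4 in L1 (adjusted p = 0.188 without L1 replicate 1 and 0.0551 without L1 replicate 2) and Dscam4 in L2 (-0.58, adjusted p = 0.152, without L2 replicate 2).

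**Figure D3:**
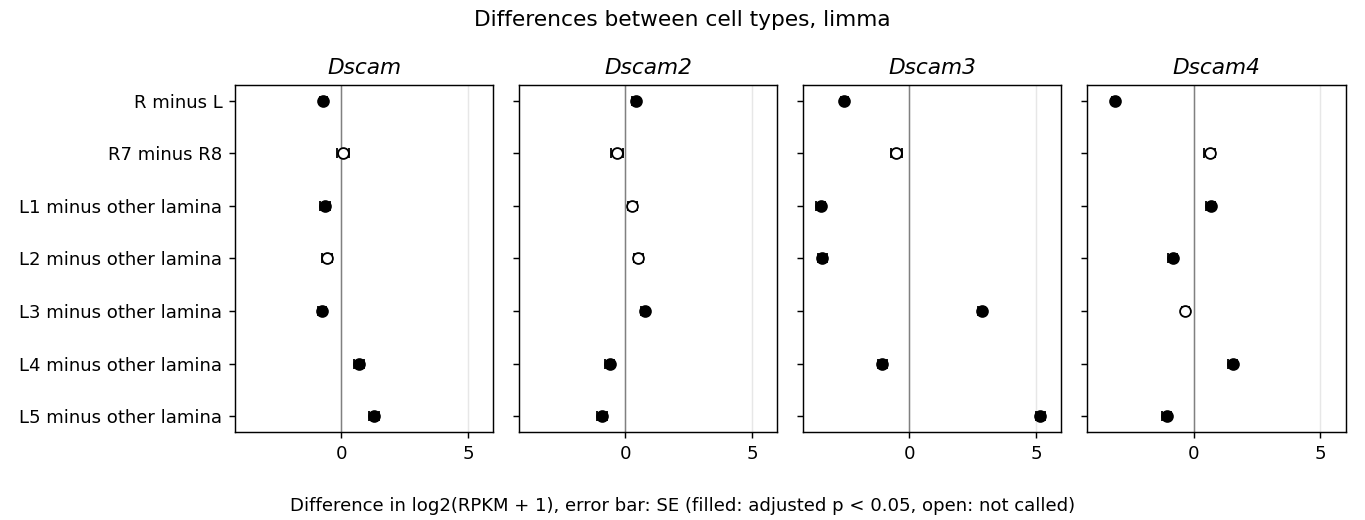
Differences in log2(RPKM + 1) for each Dscam family gene, one row per comparison, with SE bars; filled points had an adjusted p under 0.05 and open points did not. Dscam3 runs from -3.51 in L1 to 5.17 in L5, and all 4 points of R7 minus R8 are open.

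In some types the 4 members differed between replicates in the same direction. Replicate 1 held more of all 4 members than replicate 2 in L2 (1.35 to 1.72 times), in L4 (1.39 to 1.504 times) and in L5 (1.06 to 1.43 times). In these 3 types the 512 tested genes of at least 7000 bases were also higher in replicate 1, with median log2 differences of 0.29 in L2, 0.35 in L4 and 0.26 in L5, against -0.06, -0.14 and 0.04 for all tested genes. In the other types of 2 libraries the long-gene median was between -0.07 and 0.07 and the members moved in both directions. Between R and lamina neurons the long genes had a median of -0.32, against -0.02 for all tested genes, beside -3.09 for Dscam4, -2.57 for Dscam3, -0.70 for Dscam and 0.41 for Dscam2. The length limit was chosen after the values were seen, and the part of gene length in the members' differences was not tested.

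Across the 7 type means Dscam and Dscam2 ran opposite to each other (Pearson r = -0.96 on log2(RPKM + 1), and -0.84 over the 16 libraries, which share type, depth and normalization). Dscam with Dscam3 gave r = 0.65 and Dscam3 with Dscam4 r = 0.22 over the type means. These are descriptions over few points, with no test.

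The gene mbl encodes the splicing factor that acts on the alternative Dscam2 exon, and its level separated types that Dscam2 did not. It had 234 and 227 RPKM in R7 and 216 and 205 RPKM in R8. In the lamina L1 held 95.4 and 96.8 RPKM, L2 held 2.28 and 2.07 RPKM, L4 held 4.54 and 4.35 RPKM and L5 held 6.53 and 7.06 RPKM. L3 held 10.9, 19.5, 29.7 and 22.7 RPKM. The L1 mean was 44.1 times the L2 mean (log2 difference 4.93, adjusted p = 1.83e-07), whereas Dscam2 in L1 minus L2 was -0.20 (adjusted p = 0.699). mbl was higher in R neurons than in lamina neurons by 4.18 ± 0.183 SE (adjusted p = 6.94e-10) and did not differ detectably between R7 and R8 (0.13, adjusted p = 0.941). Against the other lamina types L1 was higher by 3.74 (adjusted p = 2.28e-07) and L2 lower by 2.42 (log2 difference -2.42, adjusted p = 1.24e-05). In L3, the sum of the photoreceptor markers was 2.16% to 5.07% of its mean in R neurons. There mbl was 4.93% to 13.5% of its own R mean. The lowest value of both was in replicate 1, but the highest marker sum was in replicate 4 and the highest mbl level in replicate 3. The part of photoreceptor RNA in the L3 level of mbl was not tested.

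**Figure D4:**
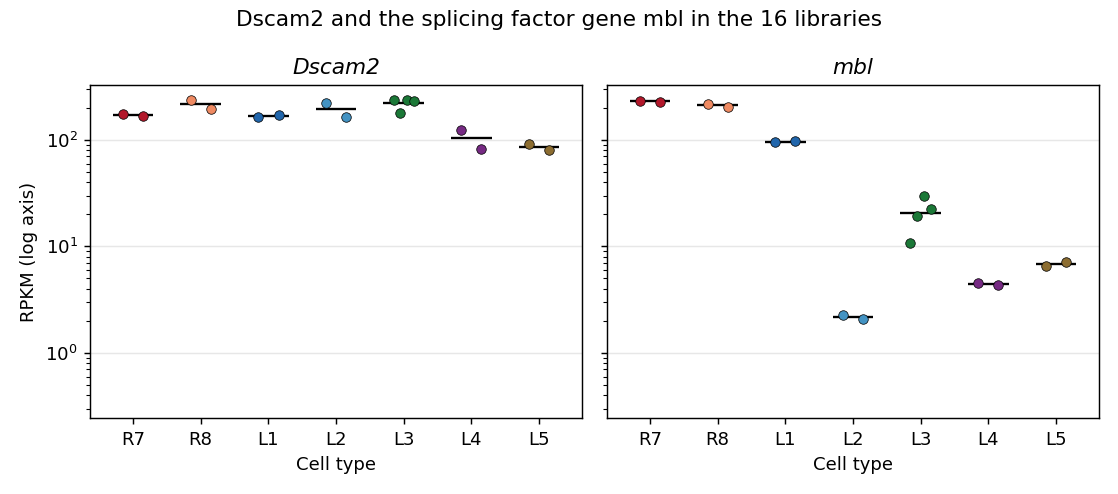
RPKM of Dscam2 and of the splicing factor gene mbl on a log axis, by cell type, with 1 point per library and a bar at the mean of each type. Dscam2 is at 167 RPKM in L1 and 194 RPKM in L2 on average, and mbl at 96.1 and 2.18 RPKM in these types.

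Of 7 genes known to act on Dscam or Dscam2 RNA or on the amount of Dscam protein, 5 were called between R and lamina neurons, 3 higher and 2 lower, where 61.9% of all tested genes were called. The median difference over the 7 was -0.22, against -0.02 over all tested genes. The neuronal RNA-binding genes elav (-1.19, adjusted p = 0.000106) and fne (-4.82, adjusted p = 2.41e-10) were lower in R neurons. elav had 32.5, 33.7, 22.6 and 21.7 RPKM in R libraries and 32.5 to 91.7 RPKM in lamina libraries, with overlap at L4 replicate 2. fne averaged 17.04 RPKM in R7 and 13.3 RPKM in R8, against 289.9 to 751 RPKM in the lamina types. Besides mbl, the kinase gene wnd (0.32, adjusted p = 0.0195) and Fmr1 (0.29, adjusted p = 0.0193), which encodes a translational regulator that binds Dscam RNA, were higher by small amounts. None of the 7 was called between R7 and R8, where 10.3% of all tested genes were. Within the lamina, 3 of 7 were called in L1 (21.1% of all tested genes), 2 in L2 (21.6%), 2 in L3 (22.5%), 3 in L4 (23.8%) and 2 in L5 (17.5%), and mbl was among them in each.

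Of 12 genes reported to act with Dscam proteins at the membrane or downstream, 7 were called between R and lamina neurons, 2 higher and 5 lower, where 61.9% of all tested genes were called, 31.7% higher and 30.2% lower. The median over the 12 was -0.10, against -0.02 over all tested genes. The adaptor gene dock, whose product binds the Dscam cytoplasmic tail, had 16.9 and 13.3 RPKM in R7 and 28.6 and 25.9 RPKM in R8, against 23.9 to 54.1 RPKM in lamina libraries (-0.98, adjusted p = 0.000255). The R8 libraries overlapped the lamina at L3 replicate 3. Its kinase partner Pak was also lower (-0.61, adjusted p = 0.00815), at 5.67 to 6.46 RPKM in R libraries and 6.68 to 15.0 RPKM in lamina libraries. The phosphatase gene Ptp69D was lower in R neurons too (-0.65, adjusted p = 0.00167). The netrin receptor gene fra was higher in R neurons (1.65, adjusted p = 5.65e-07), at 9.17 RPKM in R7 and 18.3 RPKM in R8, against 0.855 RPKM in L4 to 9.27 RPKM in L1. The ligand gene NetB averaged 410 RPKM in L3 and at most 6.47 RPKM in each other type, and its class difference was -1.86 (adjusted p = 1.58e-07). In L1, L2 and L5 the NetB means of 0.991 to 1.88 RPKM lay below the 2.35 RPKM of R8. NetA, called lower as well (-0.999, adjusted p = 0.00247), averaged 11.04 RPKM in L3 and was listed at 0 in both R7 libraries.

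Single types were also compared for these 12 partners. In L3, where 22.5% of all tested genes were called, limma called 4 of 12, NetB (7.06, adjusted p = 5.26e-12), NetA (3.14, adjusted p = 7.84e-07), fra and Rac1, all of them higher. In L2 the gene of the secreted ligand Slit, sli, averaged 27.0 RPKM, against 0.123 to 2.23 RPKM in the other types (4.29 against the other lamina types, adjusted p = 1.31e-08). For L1 the count was 5 of 12, 3 higher and 2 lower, against 21.1% of all tested genes. L2 had 4 of 12, 2 higher and 2 lower, against 21.6%. In L5, 5 of 12 were called, all lower, against 17.5% of all tested genes. They were Rac1, sli, NetA, NetB and fra. For sli the mean of the other types holds the high L2 level, and for NetA and NetB the high L3 level. In L4, 3 of 12 were called, all lower, against 23.8% of all tested genes. Between R7 and R8, 3 of 12 were called, against 10.3% of all tested genes: sli was higher (0.92, adjusted p = 0.0417) and NetB (-1.17, adjusted p = 0.00734) and fra (-0.88, adjusted p = 0.0409) were lower in R7.

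Of 8 other genes with known roles in tiling or self-avoidance of fly neurites, 3 were called between R and lamina neurons, 1 higher and 2 lower, against 61.9% of all tested genes. The median over the 8 was -0.13, against -0.02 over all tested genes. Actbeta, an activin ligand gene of the pathway that limits R7 terminals to their column, averaged 106 RPKM in R7 and 65.0 RPKM in R8, against 15.1 to 26.8 RPKM in lamina types (2.003, adjusted p = 5.94e-08). The cadherin gene stan (-1.95, adjusted p = 2.81e-08) and tutl (-1.40, adjusted p = 2.73e-06), an immunoglobulin superfamily gene of R7 tiling, were lower in R neurons. The tutl libraries held 95.4 RPKM on average in R7 and 162 RPKM in R8, against 243 to 482 RPKM in lamina types. stan was the 1 gene of these 8 called between R7 and R8, higher in R7 (0.81, adjusted p = 0.0288), where 10.3% of all tested genes were called.

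**Figure D5:**
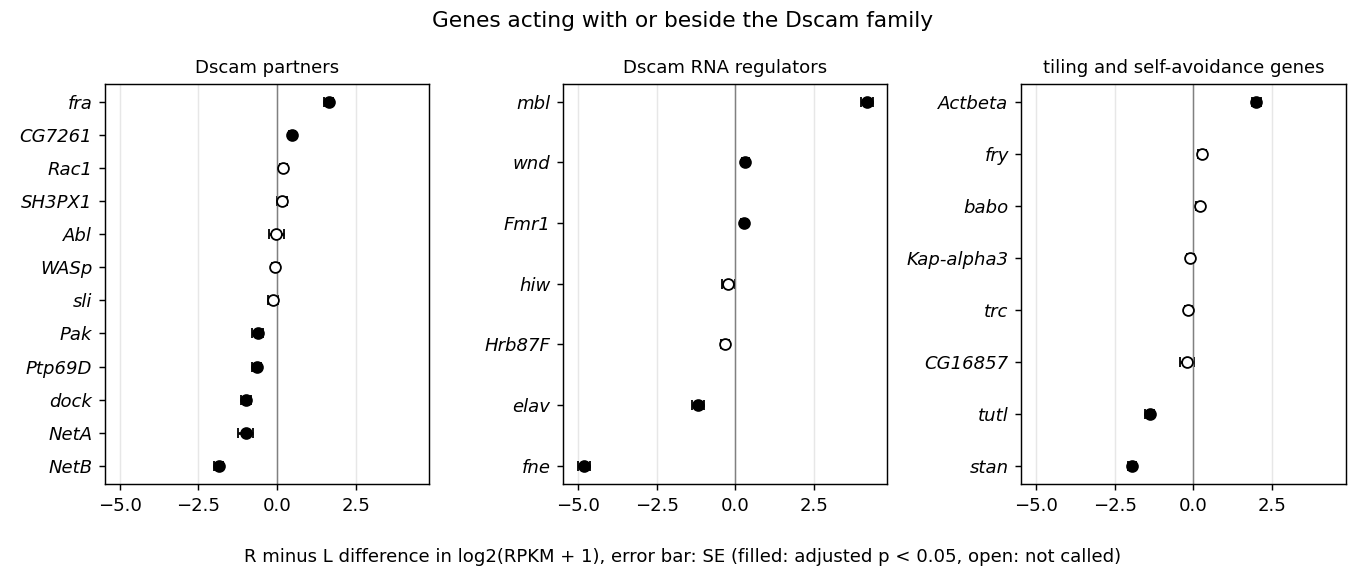
R minus L differences in log2(RPKM + 1), with SE bars, for 12 Dscam partners, 7 regulators of Dscam RNA or protein amount and 8 other tiling or self-avoidance genes, each panel sorted by its difference; filled points had an adjusted p under 0.05. mbl at 4.18 and fne at -4.82 stand at the ends of the regulator panel.

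The genes whose levels ran most like each member over the 16 libraries were found among 5796 tested genes with a type mean of at least 10 RPKM. For Dscam they were oa2, an octopamine receptor gene with r = 0.95, the lipophorin receptor gene LpR1 (r = 0.95) and the glutamate receptor genes GluRIA (r = 0.94) and GluRIB (r = 0.94), and 12 genes had an r over 0.9. Each of these 4 was far more abundant in L5 and L4 than elsewhere. oa2, for example, averaged 162 RPKM in L5 and 26.0 RPKM in L4 and at most 1.58 RPKM in each other type. For Dscam3 the nearest genes were CG32052 (r = 0.96), the cytochrome P450 gene Cyp6g2 (r = 0.96), the insulin-like peptide gene Ilp2 (r = 0.95) and the channel subunit gene unc79 (r = 0.95), with 11 genes over 0.9. Ilp2 averaged 90.1 RPKM in L5, 63.9 RPKM in L3 and at most 2.87 RPKM in each other type.

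Dscam4 had the most company, with 62 genes over r = 0.9. The nearest were dpr4 (r = 0.97), an immunoglobulin superfamily receptor gene, the glutathione transferase gene GstZ2 (r = 0.97), DOR (r = 0.97) and the exchange factor gene PsGEF (r = 0.96). dpr4 averaged 1.60 RPKM in R7 and 0.786 RPKM in R8, against 13.7 RPKM in L5 to 48.1 RPKM in L4. For Dscam2 no gene had an r over 0.9, and the nearest were CG15186 (r = 0.89), CR43899 (r = 0.88), CG43901 (r = 0.86) and a methionine tRNA gene (r = 0.84). CG15186 averaged 13.5 RPKM in both R7 and R8 and 20.8 RPKM in L3, against 0.537 RPKM in L4 and 0.379 RPKM in L5. These correlations describe libraries that share cell type, depth and normalization, and carry no test.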

How the data were processed

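RNA from sorted neurons was sequenced in 16 libraries, aligned with TopHat to genome build BDGP 5 per the submitters' processing notes. The authors deposited RPKM values per gene, and the sources used here do not name the annotation or the counting program. Every gene with a read (15155 of 15155) had values that were whole reads in all libraries, within 1e-06 reads, for 1 integer length per gene and 1 integer total per library. Totals were 47.05 to 153.6 M reads, and no member had fewer than 271 reads in a library.

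log2(RPKM + 1) values of the 9346 genes with at least 1 RPKM in at least 2 libraries entered limma 3.58.1 (R 4.3.3), with 1 mean per cell type, a mean-variance trend and all 16 libraries. Adjusted p-values are Benjamini-Hochberg over all tested genes within a comparison, called under 0.05. Values in the report with SE are limma's; SD is over libraries. Type against type pairs numbered 21 and were not run in the alternatives. Alternatives were a pseudocount of 0.1, no filter, quantile normalization, a replicate block, each library left out, L3 without replicates 3 and 4, the lamina or photoreceptor libraries alone, and voom on the recovered reads, which was added after the values were seen. Fits were tested on simulated data.

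Genes named are the 4 members, for each the 4 genes with the highest Pearson r of log2(RPKM + 1) over the libraries, mbl, dock, Pak and elav, and from each of 3 gene lists up to 4 more called genes with the greatest R minus L difference; the other list genes were named as members of small counts, after their values were seen. The members and lists were chosen with earlier results of these data known. Transcript lengths and overlaps came from annotation BDGP 6, so no coordinates are given.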

Additional observations from a re-analysis of the deposited data

Results flagged for a closer look

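Dscam2 in L3 replicate 2 was at 178 RPKM, while the other 3 L3 libraries lay at 233 to 235 RPKM. The gap to the nearest library was 0.96 of the whole range of the 4, above Dixon's 95% critical value for 4 samples. The check was made for 8 genes in L3, the one type with 4 libraries, and chance exceeds that value in about 1 of 20 groups. The value of 177.99 RPKM still lies above every L4 and L5 library.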

How the results depend on the processing

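For the 4 members and 9 comparisons, 22 of 36 results kept their direction and side of the threshold in every alternative run; of 820 single values compared, 780 did so, 24 lost and 15 gained a call and 1 changed sign. Adjusted p-values stand in brackets. Dscam in L1 was not called with a pseudocount of 0.1 (-0.88, 0.0746), no filter (-0.64, 0.0579), quantile normalization (-0.34, 0.174) or the 12 lamina libraries alone (-0.64, 0.0778), which also lost Dscam (0.68, 0.0589) and Dscam2 (-0.62, 0.0561) in L4. Quantile normalization lost Dscam2 in L4 (-0.54, 0.148) and in R minus L (0.19, 0.392). Dscam3 in L4 was lost with a pseudocount of 0.1 (-0.65, 0.0582) and with voom (-0.57, 0.0921), and Dscam3 in R7 minus R8 gained a call with that pseudocount (-1.09, 0.0341). Dscam and Dscam2 in L2 gained one without L3 replicates 3 and 4 (-0.56, 0.0262, and 0.54, 0.0423), which had the higher mitochondrial shares, and Dscam4 in R7 minus R8 with the photoreceptor libraries alone (0.64, 0.0226). The cause was not tested.

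With 1 library left out at a time, the difference ranged as follows where a call or sign changed: Dscam in L1 -0.70 to -0.59, Dscam4 in L1 0.56 to 0.79, Dscam in L2 -0.78 to -0.36, Dscam2 in L2 0.30 to 0.74, Dscam4 in L2 -1.07 to -0.58, Dscam4 in L3 -0.39 to -0.26, Dscam in L4 0.50 to 0.87, Dscam2 in L4 -0.91 to -0.33, Dscam2 in L5 -1.01 to -0.84, Dscam2 in R minus L 0.34 to 0.48, and Dscam4 in R7 minus R8 0.54 to 0.75. Dscam in R7 minus R8, never called, ranged from -0.0015 (without R8 replicate 1) to 0.13.

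Same-numbered libraries of different types had deviations correlated at -0.249 to 0.32 over 42 pairs (median 0.061, 18 over 0.1). Because not every pair was over 0.1 and no label gives the numbers a shared source, they were not taken to pair the samples. In types of 2 libraries, replicates 1 and 2 deviate from their mean by equal and opposite amounts. Each correlation between such types therefore stands in the 42 pairs once per number. With the same repeats, 12 of 14 libraries correlated best with their own number, a hint from the data and not the design. A replicate block called 4 of 4 members in L2, adding Dscam (-0.56, 0.0248) and Dscam2 (0.54, 0.00948). It also called Dscam4 in R7 minus R8 (0.64, 0.0199). L3 replicates 3 and 4 are the only libraries of their numbers, so the block also takes both out of the estimates. The Dscam and Dscam2 differences in L2 were the same when those L3 libraries were left out with no block. With the block, limma called 3202 genes in L1, 3112 in L2, 3634 in L4, 2782 in L5 and 1542 in R7 minus R8. Main counts were 1971, 2016, 2225, 1633 and 966. Without those L3 libraries and with no block, the counts were 2936, 2832, 3404, 2610 and 1423. Apart from the block, counts moving over 1.5 times were 1327 in L2 with lamina libraries alone and 2479 in R7 minus R8 with photoreceptors alone. Those of L4 (3404) and L5 (2610) without L3 replicates 3 and 4 also moved that far. Leaving out 1 library gave lows of 855 in L1, 643 in L2, 781 in L5 and 511 in R7 minus R8. Each member had at least 271 reads per library.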
